A study of Homo sapiens with 12 samples.

Results

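DLD1 is a human colorectal cancer cell line that carries 1 mutant allele (E545K) and 1 wild-type allele of a catalytic subunit gene of PI3K. The comparison described here sets DLD1 cells from which the wild-type allele was removed (mutant-only, 3 arrays) against DLD1 cells from which the mutant allele was removed (wild-type-only, 3 arrays), so that 6 of the study's 12 arrays enter the contrast. The other 6 arrays hold the corresponding pair of genotypes of HCT116, another colorectal cancer line whose mutant allele of the same gene is a different one (H1047R). They serve here only for the test of the difference between the lines. All cells had been held in McCoy's medium with 0.5% serum for 19 h before RNA was taken, and no unedited DLD1 cells are among the arrays. Each genotype is represented by 1 derived line whose arrays the labels call biological replicates, so the genotype and everything else that differs between the derived lines cannot be told apart, and p-values measure the spread between these cultures. Whole-transcript microarrays were hybridised from 500 ng of total RNA. All 18377 genes with 1 symbol were taken, 18349 of them under an official one, each through the transcript cluster (the array's set of probes for a gene) with the highest mean level over the 12 arrays.

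PI3K converts a membrane phosphoinositide into the second messenger that recruits AKT, and AKT in turn restrains FOXO transcription factors and stimulates mTOR complex 1. The transcription factor ATF4, whose translation rises under mTOR complex 1 activity as well as under amino acid or endoplasmic reticulum stress, drives genes for amino acid synthesis, amino acid uptake and tRNA charging. In intestinal epithelium the pathway is best known for promoting growth and survival and for feedback onto receptor tyrosine kinase expression.

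Pearson's r between DLD1 arrays was 0.9952 to 0.9983 within a genotype, 0.9937 to 0.996 between genotypes and 0.9519 to 0.9633 against HCT116 arrays. Of 11 measured colorectal epithelium markers, 8 lay above the 95th percentile of 358 olfactory receptor genes, a reference of 6.87 on the log2 scale for signal that carries little information. The mean of the epithelial markers was 10.19 to 10.31 on every DLD1 array. Of the marker lists of other cell types, 5 of 10 fibroblast, 2 of 7 endothelial and 3 of 8 leukocyte genes lay above that reference, and none of them was called. Of 6 neural or neuroendocrine markers 3 lay above it and 2 fell, ENO2 (-0.36) and CHGA, the latter not held. The leukocyte list averaged 6.36 to 6.41 on the 6 arrays. Each array averages over a whole culture, so fewer expressing cells and less RNA per cell cannot be told apart.

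In DLD1, 1612 of 18377 genes (8.77%) differed between the genotypes at an adjusted p under 0.05 (limma's moderated test with Benjamini-Hochberg adjustment over all 18377 genes). Expression was higher in mutant-only cells for 1041 genes (5.66%) and lower for 571 (3.11%). A call was held for 743 genes (4.04%), meaning that it was made in the same direction in each of the 6 fits that left out 1 DLD1 array, with 469 higher (2.55%) and 274 lower (1.49%). Changes were small: the median fold among called genes was 1.25, the 90th percentile was 1.54, and 54 genes reached 2-fold, 28 higher and 26 lower, all 54 of them held. For 5200 genes (28.3%) all mutant-only arrays lay on 1 side of all wild-type-only arrays. For a single gene such separation has an exact two-sided permutation p of 0.1, so genes without a difference reach it too.

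The balance of rises and falls rested on the scaling. Higher genes made up 64.6% of calls on the deposited scale, 52.8% of 1525 calls after quantile normalization (805 higher, 720 lower) and 80.1% of 2087 after median centring (1671 higher, 416 lower). Cyclic loess gave 908 higher of 1618 (56.1%). The count itself fell to 939 without wild-type-only replicate 1, to 1034 without mutant-only replicate 1 and to 1062 without mutant-only replicate 3. With the replicate number as a block 2482 genes were called (1621 higher, 861 lower), 1605 of them shared with the unblocked calls. A gene that is given below with its own change is held unless stated, whereas the numbers of a list or family that rose or fell count all calls, held or not. The background for each such count is the share of all genes, 5.66% that rose and 3.11% that fell. None of the 224 called genes named by rule turned direction under any scaling, block or left-out array that was tried. Uncalled cell type markers, also named by rule, were not part of that count.

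**Figure D1:**
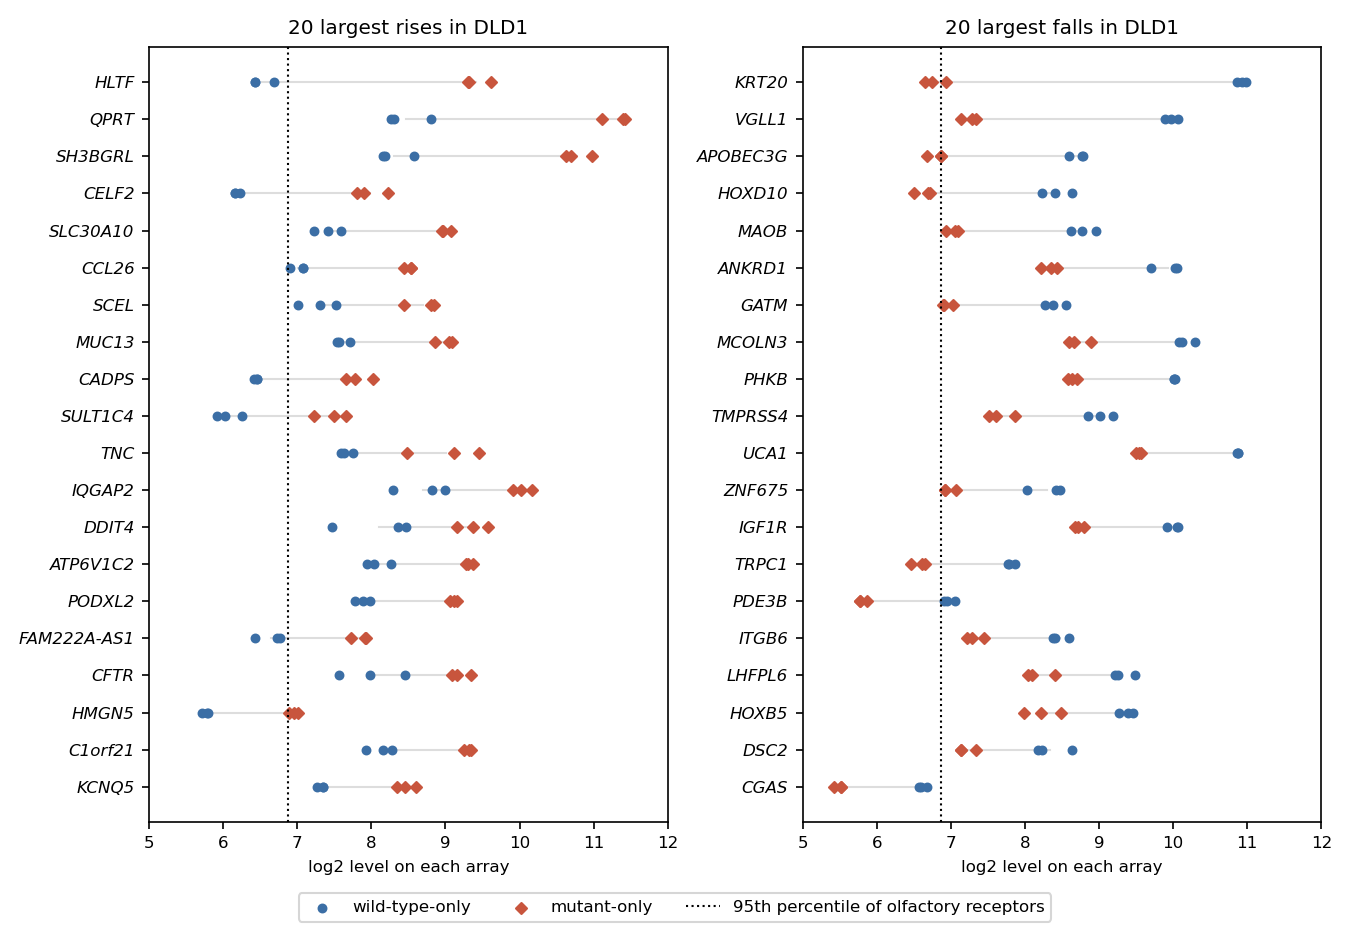
Log2 expression level on each of the 6 DLD1 arrays for 40 held genes, the leading 20 in each direction, with wild-type-only and mutant-only arrays in different colours and a dotted line at 6.87, the olfactory receptor reference. The 40 genes were chosen among those whose arrays do not overlap between the genotypes, so the lack of overlap is no result. KRT20 shows the widest separation.

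Several of the largest changes lay outside the growth and stress programmes. PHKB, the beta subunit of phosphorylase kinase, which switches on glycogen breakdown, read 10.01, 10.01 and 10.03 on the wild-type-only arrays and 8.70, 8.58 and 8.64 on the mutant-only arrays. Its log2 change was -1.38 ± 0.0554 (SE, n = 3 against 3; adjusted p = 8.45e-09), and the difference is many times the spread of either group. UCA1, a long noncoding RNA known from bladder and other carcinomas, read 10.87, 10.88 and 10.86 against 9.54, 9.56 and 9.50, a change of -1.34 ± 0.0655 (SE, n = 3 against 3; adjusted p = 5.26e-08). TMPRSS4, a membrane-anchored serine protease, went from 8.85, 9.01 and 9.19 to 7.61, 7.86 and 7.51. For all 3 genes the groups stood well apart, with the tightest replicates in PHKB and UCA1.

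On the rising side, NFIB, a nuclear factor I transcription factor, read 10.51, 10.51 and 10.53 in wild-type-only and 11.52, 11.48 and 11.56 in mutant-only cells, which places every mutant-only array about 1 log2 unit higher. ATP6V1C2, a tissue-restricted subunit of the vacuolar proton pump, rose from 8.03, 8.26 and 7.94 to 9.30, 9.37 and 9.28 (log2 change 1.24 ± 0.0987 SE, adjusted p = 4.01e-06). Of the 23 measured subunits of that pump 1 other was called, in the opposite direction. PODXL2, a sialomucin-type membrane protein, rose by 1.23 (adjusted p = 9.86e-08). KCNQ5, a voltage-gated potassium channel, rose by 1.15. EEF1A2, the tissue-restricted form of elongation factor 1 alpha, rose by 1.02 from 8.57, 8.51 and 8.74 to 9.49, 9.79 and 9.60. IQGAP2, a scaffold protein of the IQGAP family, rose by 1.33, and here the wild-type-only replicates were loose, at 8.82, 9.0 and 8.29 against 9.91, 10.17 and 10.02. The drug efflux pump ABCB1 (P-glycoprotein) read 8.60, 8.80 and 8.48 against 9.72, 9.42 and 9.80. Another such pump, ABCG2, rose by 0.54 from a level below the olfactory receptor reference. In the 43 measured ABC transporters 3 rose and 1 fell, where 5.66% of all genes rose and 3.11% fell. The median of that list was -0.041, and none of 11 measured ABCC genes was called.

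Among genes of amino acid supply and tRNA charging, rises outnumbered falls in each of 6 lists when all arrays were used. Of 20 cytosolic aminoacyl-tRNA synthetases, which load amino acids onto tRNAs, 12 rose and none fell, where 5.66% of all genes rose. The list's median log2 change was 0.243 against -0.01 over all genes, and 19 of its 20 members lay above 0. Of 16 mitochondrial synthetases 3 rose and none fell, with a median of 0.137 and FARS2 (0.49) and YARS2 (0.33) held. Of 20 serine synthesis and folate-cycle enzymes 8 rose and none fell, with a median of 0.156. Of 21 regulators and stress targets of the ATF4 network 10 rose and none fell, with a median of 0.224. Asparagine, glutamine, proline and arginine enzymes had 5 rises and 1 fall among 16 and a median of 0.168. Amino acid transporters were divided, with 7 rises and 2 falls among 31 and a median of 0.021. These lists sit high on the array, and in the upper 9188 genes by level 8.37% rose and 3.75% fell.

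The counts were less firm than the medians. Held rises numbered 5 synthetases, 3 serine and folate enzymes, 5 ATF4 network genes and 3 arginine and proline enzymes. Without mutant-only replicate 2, wild-type-only replicate 1 or wild-type-only replicate 3 alone, 6 synthetases and 6 ATF4 network genes rose, and without mutant-only replicate 3 there were 7 synthetases. The serine and folate count was 4 to 5, and the arginine and proline count 3, without mutant-only replicate 1 or 2 or wild-type-only replicate 1 or 3. The transporter rises numbered 2 without wild-type-only replicate 1, 3 without mutant-only replicate 2 and 4 without mutant-only replicate 1 or 3 or wild-type-only replicate 3. After quantile normalization 7 synthetases, 5 serine and folate enzymes and 9 ATF4 network genes rose, with list medians of 0.209, 0.121 and 0.193. With the replicate block 15, 9 and 13 rose in the same order.

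PHGDH, the enzyme that diverts a glycolytic intermediate into serine synthesis, read 11.76, 11.65 and 11.50 in wild-type-only cells and 12.32, 12.46 and 12.26 in mutant-only cells, a log2 change of 0.71 ± 0.0775 (SE, n = 3 against 3; adjusted p = 7.03e-05). PSPH, which completes serine synthesis, rose by 0.56, and MTHFD2, a mitochondrial folate enzyme, rose by 0.36. WARS1, the tryptophanyl-tRNA synthetase, read 10.79, 10.93 and 10.64 against 11.27, 11.34 and 11.30, a change of 0.51 ± 0.078 (SE; adjusted p = 0.00103). The groups did not overlap for these genes, and in both PHGDH and WARS1 wild-type-only replicate 3 was the lowest array. XPOT, which exports tRNA from the nucleus, rose by 0.41 and CTH, which makes cysteine from cystathionine, by 0.47. SESN2, a leucine-sensing inhibitor of mTOR complex 1, read 8.23, 8.44 and 8.17 against 9.03, 8.96 and 9.02.

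ARG2, the mitochondrial arginase, rose by 0.77 from 8.33, 8.53 and 8.38 to 9.19, 9.12 and 9.24 (SE 0.0677, adjusted p = 9.9e-06). PYCR1, which completes proline synthesis, rose by 0.38 and GOT1, the cytosolic aspartate aminotransferase, by 0.31. GLUL, glutamine synthetase, went the other way: 10.68, 10.66 and 10.95 in wild-type-only cells and 9.54, 9.81 and 9.69 in mutant-only cells, a change of -1.08 ± 0.0952 (SE, n = 3 against 3; adjusted p = 9.88e-06). It was the only fall among the 16 genes of its list, and its arrays were separated by more than 0.8. Among transporters SLC1A4, a neutral amino acid carrier, rose by 0.45, while the glutamate carrier SLC1A3 fell by 0.68 and the neutral amino acid exchanger SLC7A8 fell by 0.45.

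**Figure D2:**
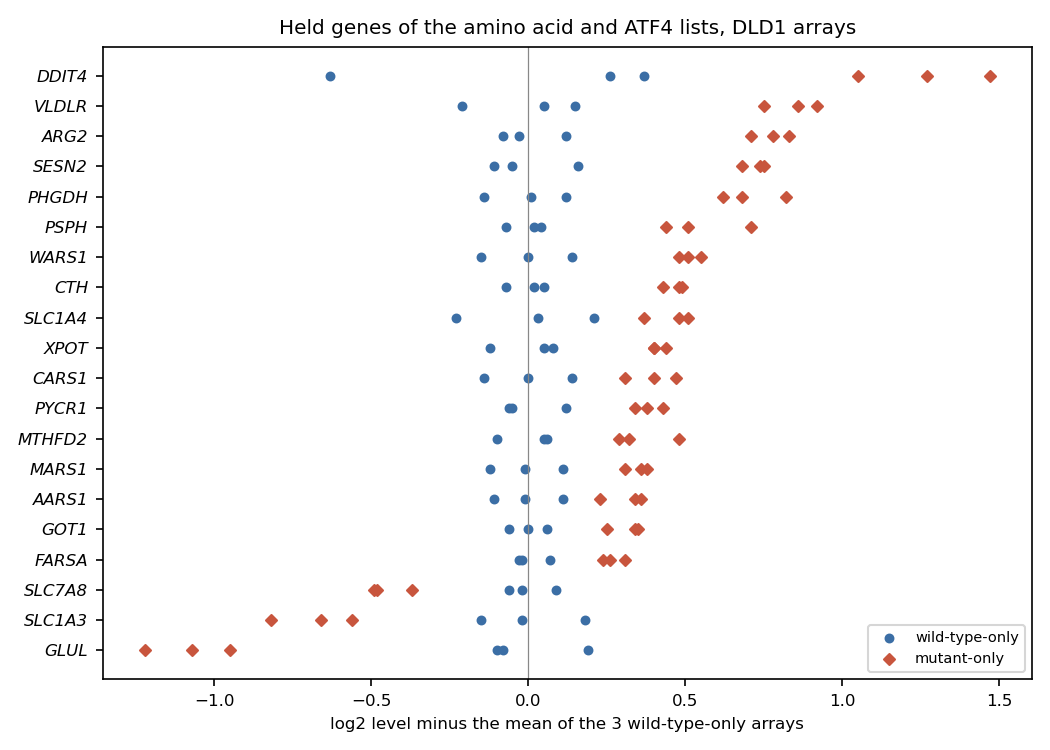
Log2 level of each DLD1 array minus the wild-type-only mean for the 20 held genes of the 5 amino acid and ATF4 lists. The mutant-only arrays lie above 0 for 17 genes, with DDIT4 spread most among wild-type-only arrays, and below 0 for SLC1A3, SLC7A8 and GLUL.

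The promoters of these genes are shown because the called members carry the letters of the composite element that ATF4 and CEBP proteins are known to bind, TGATGNAA, more often than promoters at large. Promoter windows run from 250 bases before to 50 after a gene start in RefSeq on GRCh38.p14, 14208 of the measured genes had at least 1 window, and both strands were searched. Of 35 genes of the 5 lists that were called higher and had a window, 11 held the element (31.4%), against 9 of 51 uncalled members of the same lists (17.6%) and 3.6% of all measured genes. The lists were made of amino acid and ATF4 network genes, so a share above promoters at large was likely whatever was called. Uncalled members of the same lists are the closer comparison. The element was in 6.06% of all genes called higher, in 3.28% of those called lower and in 2.18% of uncalled genes among the upper 9188 by level. Counting only the first listed start of a gene gave 22.9% in place of 31.4% for the called members, and was not done for the uncalled ones. A match of letters does not show that the factor binds. The 5 held genes with a match are printed 5′ to 3′ on the gene's own strand, with the element in capitals. In all 5 it lies on the opposite strand, so it reads TTGCATCA.
AARS1: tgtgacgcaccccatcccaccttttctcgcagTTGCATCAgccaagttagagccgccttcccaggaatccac
CARS1: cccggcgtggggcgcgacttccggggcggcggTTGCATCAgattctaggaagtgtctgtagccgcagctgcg
GOT1: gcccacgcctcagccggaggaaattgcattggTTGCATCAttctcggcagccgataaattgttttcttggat
MARS1: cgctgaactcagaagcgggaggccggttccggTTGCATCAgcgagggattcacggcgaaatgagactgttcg
SLC1A4: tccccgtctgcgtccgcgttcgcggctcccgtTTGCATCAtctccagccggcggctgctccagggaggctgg
The stretches are chr16:70289654-70289725 (minus strand) for AARS1, chr11:3057386-3057457 (minus) for CARS1, chr10:99430783-99430854 (minus) for GOT1, chr12:57488032-57488103 (plus) for MARS1 and chr2:64989360-64989431 (plus) for SLC1A4. AARS1, CARS1 and MARS1 encode the alanyl-, cysteinyl- and methionyl-tRNA synthetases, and they rose by 0.31, 0.39 and 0.36. Neither PHGDH nor WARS1, the largest held rises of their lists, was among the matches.

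Protein folding and degradation genes rose in part. Endoplasmic reticulum chaperones and stress sensors had 7 rises and 1 fall among 21 measured genes, with a median of 0.147, and heat shock proteins had 4 rises and no fall among 18, with a median of 0.167. Only 2 of the former rises and 1 of the latter were held. The held genes were SDF2L1, a chaperone cofactor, and XBP1, the spliced effector of the unfolded protein response, each at 0.36, and CHORDC1, an HSP90 co-chaperone, at 0.54. ATF6, itself a sensor of unfolded protein, fell by 0.31 from 11, 10.99 and 11.03 to 10.61, 10.77 and 10.70. Heat shock rises numbered 1 to 2 when any array other than mutant-only replicate 2 was left out. Chaperone rises numbered 2 without mutant-only replicate 3 and 4 without wild-type-only replicate 1. After quantile normalization 4 chaperone and 1 heat shock genes rose, with list medians of 0.108 and 0.124.

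Proteasome subunits had 11 rises and 2 falls among 45, with a median of 0.148, and 5 rises and 1 fall were held. The rises were in constitutive parts: the regulatory particle subunits PSMC1 (0.35), PSMD1 (0.27) and PSMD11 (0.31), the assembly factor PSMD9 (0.36) and the core chaperone PSMG1 (0.29). PSMB9, the interferon-inducible subunit of the immunoproteasome, read 8.41, 8.32 and 8.23 in wild-type-only and 7.73, 7.75 and 7.57 in mutant-only cells, a change of -0.64 ± 0.0697 (SE, n = 3 against 3; adjusted p = 7.03e-05). The other called fall was PSME1, part of the interferon-inducible activator, and it was not held. The rises numbered 5 without mutant-only replicate 3 and 6 without wild-type-only replicate 1. After quantile normalization 8 rose and 2 fell, with a median of 0.113. The list is bright, and in the upper 9188 genes by level 8.37% rose and 3.75% fell.

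Ribosome production and several mitochondrial lists had small positive medians, where 5.66% of all genes rose and their median was -0.01. All 28 ribosome biogenesis factors lay above 0, with a median of 0.183, and 8 rose and none fell. The held ones were WDR12 (0.25) and PES1 (0.25), partners in large-subunit processing, and POLR1C (0.32), shared by RNA polymerases I and III. Mitochondrial ribosomal proteins had 11 rises and no fall among 73 and a median of 0.13, with MRPL15 (0.26) and MRPL2 (0.23) held. Complex I of the respiratory chain had 9 rises and no fall among 41 and a median of 0.139, with NDUFA6 (0.27), NDUFAB1 (0.27) and the assembly factor NDUFAF5 (0.39) held. Respiratory complexes III and IV had 3 rises and no fall among 28, 1 of them held, and ATP synthase subunits had 1 rise and 1 fall among 19, neither held, with medians of 0.095 and 0.10. Cytosolic ribosomal proteins had no rise and 1 fall (RPL3L, not held) among 65, and their median was -0.001.

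The counts of these lists depended on arrays and scaling. Mitochondrial ribosomal rises numbered 2 without wild-type-only replicate 1, 6 without mutant-only replicate 1 and 7 without mutant-only replicate 3. Biogenesis rises numbered 3 without replicate 1 or 3 of either genotype, and complex I rises 4 to 5 without any array other than wild-type-only replicate 3. After quantile normalization the medians were 0.139, 0.09 and 0.091 for biogenesis, mitochondrial ribosome and complex I, and the rises numbered 4, 8 and 3. With the replicate block the rises numbered 12, 20 and 16. Small nucleolar RNAs, which guide ribosomal RNA modification, had 1 rise among 189 and a median of 0.006.

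Other metabolic lists were mixed. Cholesterol synthesis and uptake genes had no call among 18, while fatty acid and triglyceride synthesis had 6 rises and 1 fall among 23. ACSL4, which activates polyunsaturated fatty acids, read 7.83, 7.75 and 7.88 against 8.60, 8.47 and 8.69, a log2 change of 0.76 ± 0.0663 (SE, n = 3 against 3; adjusted p = 8.85e-06). ELOVL6 (0.37) and FADS2 (0.38), which lengthen and desaturate fatty acids, and GPAM (0.30), which starts glycerolipid synthesis, rose as well. PPARG, the lipid-sensing nuclear receptor, rose by 0.64 from 9.43, 9.36 and 9.45 to 10.01, 10.01 and 10.14. CPT1A, which admits fatty acids to mitochondria for oxidation, fell by 0.52, whereas SLC25A20, the carnitine carrier that acts after it, rose by 0.51 and HADH, a beta-oxidation enzyme, by 0.32.

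OGDH, a subunit of the 2-oxoglutarate dehydrogenase of the tricarboxylic acid cycle, rose by 0.62 from 10.34, 10.46 and 10.42 to 11.02, 11.08 and 11 (SE 0.0487, adjusted p = 3.43e-06), in a list of 21 in which 2 genes rose and none fell. ME1, the cytosolic malic enzyme, rose by 0.42, HMOX1, haem oxygenase, by 0.55 and SRXN1, sulfiredoxin, by 0.32, all 3 counted among NRF2 targets, of which 4 of 22 rose and 1 fell. Among 20 sphingolipid enzymes 2 rose and 4 fell, beside 5.66% and 3.11% of all genes. SGMS1, which makes sphingomyelin, rose by 0.48, while SPTLC2 and SPTSSB, parts of the serine palmitoyltransferase that starts the pathway, fell by 0.33 and 0.54, and SGPL1, the lyase that ends it, fell by 0.27. GATM, which starts creatine synthesis, fell by 1.46.

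In the list of insulin and IGF receptors, adaptors and binding proteins 2 genes rose and 4 fell of 20, with a median of -0.112. Over all genes 5.66% rose and 3.11% fell. IGF1R, the IGF1 receptor, read 10.05, 9.92 and 10.07 in wild-type-only cells and 8.79, 8.72 and 8.67 in mutant-only cells (-1.29 ± 0.0556 SE, n = 3 against 3; adjusted p = 1.67e-08). GRB10, an adaptor that restrains insulin and IGF1 receptors, moved oppositely, from 8.52, 8.75 and 8.41 to 9.39, 9.34 and 9.54 (0.86 ± 0.0826 SE, adjusted p = 2.18e-05). The 2 genes of 1 receptor complex thus changed in opposite directions, each with no overlap between genotypes. IGFBP7, an IGF-binding protein, fell by 0.44. The falls of the list numbered 2 without wild-type-only replicate 3 or any 1 of the mutant-only arrays.

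FOXO factors and FOXO-activated genes had 1 rise and 6 falls among 23 and a median of -0.129. The shares over all genes were 5.66% and 3.11%. SESN3, a stress-induced regulator of mTOR complex 1, fell by 0.86, TRIB2, a pseudokinase, by 0.49 and RICTOR, the defining subunit of mTOR complex 2, by 0.32. IGF1R, given above with the insulin and IGF list, is counted among the falls here too, so these lists overlap. Among 32 PI3K, AKT and mTOR components 4 rose and 1 fell, RICTOR again, beside the same shares. PIK3R3, a regulatory subunit of PI3K, rose by 0.39. The 4 rises became 1 without wild-type-only replicate 2, and 2 when either mutant-only replicate 3 or wild-type-only replicate 1 was dropped. ULK2, a kinase that starts autophagy, read 7.98, 7.90 and 8.11 against 6.95, 7.02 and 6.85, a change of -1.06 ± 0.0751 (SE; adjusted p = 1.62e-06). PDE3B, the cyclic nucleotide phosphodiesterase that insulin activates through AKT, fell by 1.16, from 7.05, 6.90 and 6.94 to 5.77, 5.77 and 5.86, where the mutant-only values lie under the olfactory receptor reference.

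Negative feedback genes of ERK signalling had 2 rises and 6 falls among 25 and a median of -0.084. Over all genes 5.66% rose and 3.11% fell. DUSP6, the ERK phosphatase, read 11.91, 11.96 and 11.99 against 11.22, 11.58 and 11.32, and DUSP10, a phosphatase of the JNK and p38 kinases, fell by 0.59. SPRY4 fell by 0.28, whereas ETV1, a PEA3-family transcription factor, rose by 0.38. Immediate early transcription factors had no rise and 4 falls among 21, with FOSL2 (-0.32) and JUN (-0.48) held. After quantile normalization the feedback list had 2 rises and 9 falls. Its falls numbered 3 without mutant-only replicate 1, and those of the immediate early list 2 without mutant-only replicate 2. DDR1, a collagen receptor kinase, fell by 0.42 and EFNB2, an ephrin ligand, by 0.48.

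YAP and TEAD factors, cofactors and targets, the nuclear side of the Hippo pathway, had 1 rise and 7 falls among 26 and a median of -0.069. Over all genes 5.66% rose and 3.11% fell. VGLL1, a TEAD cofactor, read 9.97, 9.89 and 10.07 in wild-type-only cells and 7.14, 7.28 and 7.34 in mutant-only cells, a 6.6-fold difference (adjusted p = 5.29e-10). ANKRD1, a cardiac ankyrin repeat protein that is a standard YAP readout, went from 10.05, 9.70 and 10.03 to 8.22, 8.43 and 8.35. WWTR1, which encodes the YAP paralogue TAZ, fell by 0.53 and the matricellular target CCN1 by 0.30. TEAD2, a DNA-binding partner, rose by 0.52 from 7.63, 7.57 and 7.77 to 8.11, 8.21 and 8.20. The falls numbered 4 without replicate 3 of either genotype or mutant-only replicate 1.

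Promoters of the 2 largest of these falls are printed because both hold CATTCC, the core letters that TEAD factors are known to bind. On either strand the motif was in 15.5% of all measured genes with a window, in 21.2% of genes called lower, in 14.7% of those called higher and in 3 of the 5 falls of the list that had a window. It is short and common, and its presence is a description only. Capitals mark it, as GGAATG where it lies on the opposite strand, and the stretches are chrX:136532026-136532095 (plus strand) for VGLL1 and chr10:90921178-90921247 (minus) for ANKRD1, whose window holds another match.
VGLL1: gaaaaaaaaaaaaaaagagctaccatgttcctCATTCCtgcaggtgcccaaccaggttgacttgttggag
ANKRD1: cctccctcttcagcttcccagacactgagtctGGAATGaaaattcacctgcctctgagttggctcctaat

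Of 39 genes of TGF-beta and BMP signalling 3 rose and 7 fell, with a median of -0.063, and 3 rises and 5 falls were held. Over all genes 5.66% rose and 3.11% fell, with 2.55% and 1.49% held. The rises were TGFB2, a ligand, from 10.22, 10.00 and 10.29 to 10.66, 10.64 and 10.72, TGFBR1, the type I receptor, by 0.37, and BMPR1B, a BMP receptor, by 0.68. Held falls were SMAD3, the signal transducer, by 0.30, and the targets SKIL (-0.54), PMEPA1 (-0.75), TGFBI (-0.62) and ID1 (-0.60). TGFBR3, a co-receptor, was among the falls that were not held (-0.34). Notch ligands were divided, in a list of 21 with 1 rise and 3 falls. JAG2 (-0.57) and DLL1 (-0.30) fell, while DLL4 was the rise (0.22) and the receptor NOTCH3 the other fall (-0.23), neither of them held.

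**Figure D3:**
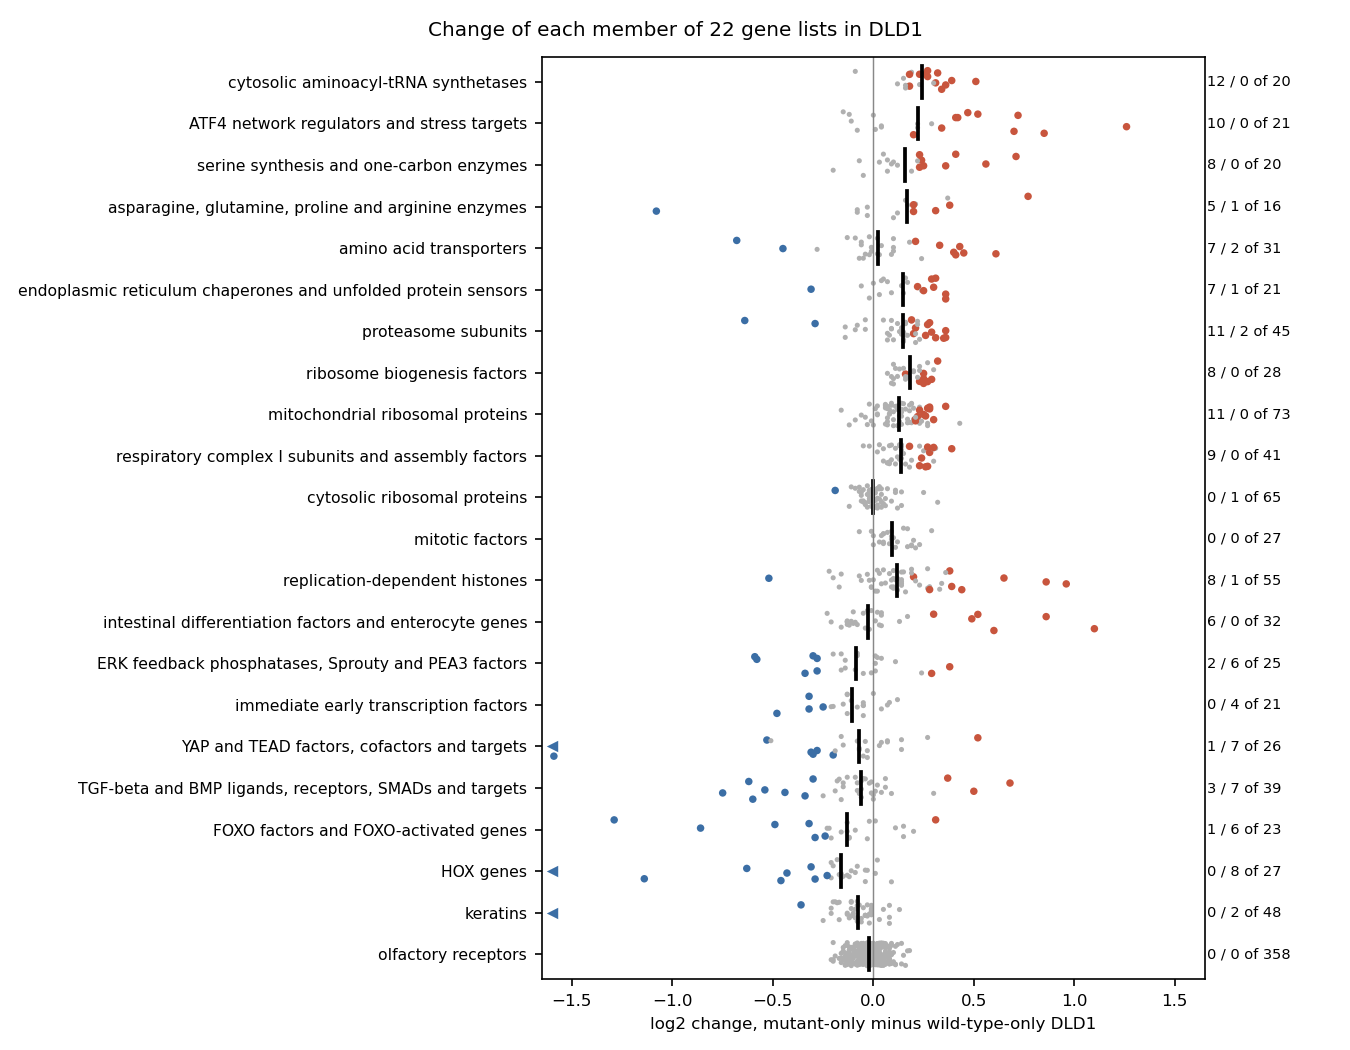
Log2 change (mutant-only minus wild-type-only) of every measured member of 22 gene lists, with called members coloured, black ticks at list medians and the numbers that rose and fell of those measured at the right. Triangles at the left edge stand for VGLL1, HOXD10 and KRT20, which lie beyond it, and list medians run from 0.243 for cytosolic aminoacyl-tRNA synthetases to -0.161 for HOX genes.

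Genes of the intestinal epithelium did not move as a block. Of 32 differentiation factors and enterocyte genes 6 rose, all held, and none fell, yet the list's median was -0.027. DPP4, a brush border peptidase, read 8.14, 8.27 and 8.46 against 9.26, 9.30 and 9.62 (1.10 ± 0.113 SE, n = 3 against 3; adjusted p = 4.25e-05). CA2, carbonic anhydrase 2, read 9.33, 9.43 and 9.40 against 10.28, 10.13 and 10.32, and CDH17, the liver-intestine cadherin, 10.51, 10.50 and 10.51 against 11.17, 11.14 and 11.02. EHF and KLF4, epithelial transcription factors, rose by 0.52 and 0.30, and CEACAM6 was another held rise of the list. CFTR and HNF4G are not members of the list. CFTR, the chloride channel, rose by 1.20, though wild-type-only arrays ran from 7.56 to 8.45. HNF4G, an intestinal nuclear receptor, rose by 0.86 from 6.06, 6.17 and 6.52, all under the reference of 6.87, to 7.09, 7.03 and 7.22, all above it.

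KRT20, the keratin of mature colonocytes, stood against these rises. It read 10.93, 10.98 and 10.86 in wild-type-only and 6.65, 6.75 and 6.93 in mutant-only cells, a 17.7-fold difference whose lower group sits at the reference. Of 48 keratins the only other call was KRT12, below the reference. Membrane mucins were divided: MUC13 rose by 1.40 and MUC12 by 0.40, while MUC1 fell by 0.50. The call of MUC12 was lost when all transcript clusters of the gene were averaged.

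Of 29 integrins 3 rose and 5 fell, beside 5.66% and 3.11% of all genes. ITGB6, the beta subunit of an epithelial integrin that activates TGF-beta, read 8.41, 8.38 and 8.60 against 7.28, 7.21 and 7.45 (-1.15 ± 0.0895 SE; adjusted p = 3.43e-06), and ITGA3 (-0.31) and ITGB4 (-0.46), subunits of laminin receptors, fell too. ITGA9 rose by 0.70 and ITGA5, the fibronectin receptor subunit, by 0.30. Of matrix genes, TNC (tenascin C) rose from 7.75, 7.59 and 7.63 to 9.45, 8.48 and 9.12. FN1 (fibronectin) rose by 0.41, from a wild-type-only mean of 6.7, under the olfactory receptor reference, to 7.11. Among desmosomal genes DSC2 read 8.23, 8.17 and 8.63 against 7.14, 7.14 and 7.34 and DSG2 fell by 0.27, while PKP2 rose by 0.36. TJP3, a tight junction scaffold, rose by 0.67, and CD44, the hyaluronan receptor, fell by 0.89 from 10.17, 10.06 and 10.31 to 9.39, 9.18 and 9.31. Of 43 collagens 1 fell and none rose.

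HOX genes, the regional identity factors, had no rise and 8 falls among 27, and their median of -0.161 was the lowest of the 98 lists apart from that of the 6 APOBEC3 genes. HOXB5 read 9.39, 9.46 and 9.27 against 7.99, 8.49 and 8.22, and its neighbour in the cluster HOXB6 fell by 0.63. HOXC9 (-0.43) and HOXD10 (-1.79) fell as well, in mutant-only cells to levels under the olfactory receptor reference. The falls numbered 4 to 5 without any array other than wild-type-only replicate 2, 6 after quantile normalization and 10 with the replicate block.

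Replication-dependent histones, whose transcripts lack poly(A) tails and peak in S phase, had 8 rises and 1 fall among 55 and a median of 0.116. Over all genes 5.66% rose and 3.11% fell. H2BC14 read 11.65, 11.70 and 11.83 against 12.56, 12.77 and 12.43 (0.86 ± 0.127 SE, n = 3 against 3; adjusted p = 0.000861), and H2BC9 (0.65), H3C7 (0.44) and H1-5 (0.39) rose as well. The rises numbered 5 without replicate 1 of either genotype or wild-type-only replicate 3. Histone genes are near-identical copies, so probes may read several of them. DNA replication factors had 4 rises and no fall among 32, none of the 4 held, and 27 mitotic factors had no call, with a median of 0.092.

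CGAS, the cytosolic DNA sensor, read 6.60, 6.57 and 6.67 against 5.42, 5.52 and 5.51, a change of -1.13 ± 0.0533 (SE, n = 3 against 3; adjusted p = 3.71e-08) that lies wholly under the olfactory receptor reference. Of 34 interferon-stimulated genes 3 fell and none rose: MX2 (-0.70), IFIT3 (-0.57) and OAS1 (-0.45). APOBEC3G, a cytidine deaminase that restricts retroviruses, fell by 1.91 to a mutant-only mean of 6.81, under the reference, and no other of the 6 measured APOBEC3 genes was called. Chemokines and their receptors had 3 rises and no fall among 56, near the 5.66% of all genes that rose, and of these CXCL5, a neutrophil attractant, went from 9.58, 10.06 and 9.71 to 10.72, 10.93 and 10.94.

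Families defined by the letters before the first digit of the symbol gave a scan that did not use the lists, over 245 families of at least 10 measured genes. The highest shares of rises were 5 of 12 for HSPA heat shock genes (41.7%), 5 of 14 for TIMM mitochondrial import genes (35.7%), 3 of 10 for ACOT acyl-CoA thioesterases (30%), 3 of 10 for EXOSC exosome subunits (30%) and 3 of 11 each for NDUFB complex I subunits and NOL nucleolar genes (27.3%). DDX helicases had 9 of 34 (26.5%), and none of these families had a fall. Few of these rises were held: 2 for HSPA, 1 each for EXOSC and DDX and 0 for TIMM, ACOT, NDUFB and NOL. The highest shares of falls were 3 of 10 for HOXB (30%), 2 of 10 for EPB and for OSBPL oxysterol-binding genes (20%) and 2 of 11 for DOCK and for ITGB (18.2%), ahead of KLF (3 of 18) and PPM, SERPINB and TCF (2 of 12 each), all at 16.7%. Of the falls 2 each were held for HOXB, OSBPL and ITGB, 1 each for EPB and PPM and 0 for the others. Among 479 ZNF zinc finger genes 22 rose and 11 fell, close to the share of all genes, with ZNF675 (-1.33) and ZNF430 (-1.0) the held falls and ZNF714 (0.78) the largest held rise. Their rises numbered 14 without mutant-only replicate 1 or 3, and their falls 3 without wild-type-only replicate 1 and 5 to 6 without a mutant-only array.

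The direction of change depended on the level of the gene. With genes ranked by mean level over the 12 arrays and cut into 10 equal bins, the median log2 change went from -0.0073 in the dimmest bin down to -0.0546 in the 4th, through 0.0051 in the 6th and up to 0.0504 in the 9th. The share called went from 1.03% in the dimmest bin to 14% in the 7th and 10.9% in the brightest. In the upper 9188 genes 769 rose and 345 fell, and in the lower 9189 genes 272 rose and 226 fell. The median change of the upper genes exceeded that of the lower by 0.069, and this difference was 0.003 after quantile normalization and 0.005 with cyclic loess, and 0.047 to 0.09 when 1 array was left out. After quantile normalization the upper genes had 493 rises and 544 falls.

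Per array, the interquartile range of all genes was 2.845, 2.895 and 2.808 in wild-type-only and 2.946, 2.931 and 2.941 in mutant-only cells. The mutant-only arrays were thus wider, without overlap, and the exact two-sided permutation p of 0.1 is the smallest that 3 against 3 arrays allow. The 90th percentile was higher by 0.052 in the same way (exact permutation p = 0.1), and the median of all genes differed by 0.007 (exact permutation p = 0.6). Lists of bright genes share this shift on the deposited scale, and the quantile-normalized medians given above are without it.

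**Figure D4:**
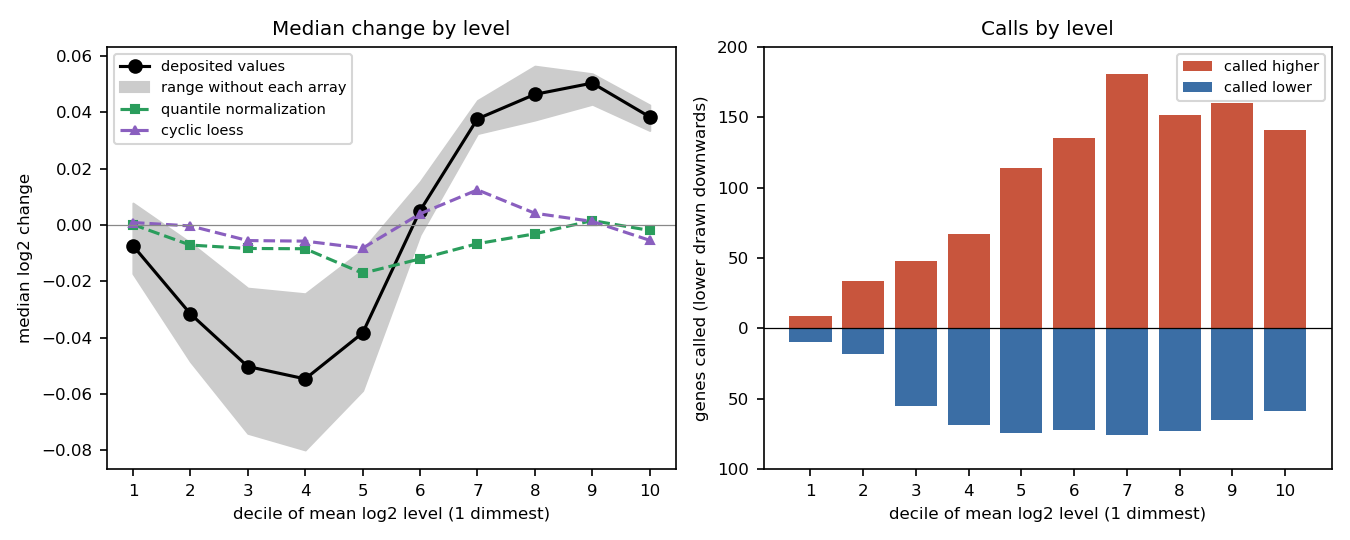
Median log2 change by bin of mean level under 3 scalings (as deposited, quantile normalized, cyclic loess), with the range over fits that leave out 1 array as a band, and the numbers of genes that rose and fell in each bin as bars. On the deposited scale medians run from -0.0546 in the 4th bin to 0.0504 in the 9th, and under both other scalings they stay near 0.

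Most held changes were between 2 measurable levels. Of 743 held genes 647 lay above the olfactory receptor reference in both genotypes and 43 at or below it in both. The mean crossed the reference in the rest: 24 were above it only in mutant-only and 29 only in wild-type-only cells, with 6 of each at least 2-fold. Crossing genes of the first kind included HLTF, a helicase-like DNA repair factor (6.43, 6.43 and 6.69 against 9.32, 9.30 and 9.62), SULT1C4, a sulfotransferase (6.03, 5.92 and 6.25 against 7.22, 7.66 and 7.49), and CADPS, a factor of vesicle release (6.46, 6.41 and 6.46 against 8.02, 7.78 and 7.66). Among those of the other kind were TRPC1, a cation channel (7.86, 7.79 and 7.77 against 6.46, 6.61 and 6.65) and SEMA4A, a semaphorin (7.64, 7.52 and 7.64 against 6.72, 6.71 and 6.67). Their fold changes rest on a value near the floor of the array in 1 genotype.

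Median changes per chromosome ran from -0.0216 on chromosome 20 to 0.0052 on chromosome 12, the furthest lying 0.014 from the median of all genes. Runs of at least 3 measured neighbours called in 1 direction numbered 10. The longest was on chromosome 4, where ANK2, CAMK2D, ARSJ and UGT8 all rose, by 0.30 to 0.65, with all but ARSJ held. TGFBR1, ALG2 and SEC61B on chromosome 9 rose and PRKD3, QPCT and CDC42EP3 on chromosome 2 fell, all held. ITGB6 lies in another run of falls on chromosome 2, with PLA2R1 and RBMS1, the last of them not held.

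The same contrast in HCT116 called 1132 of 18377 genes. Of these 225 were called in both lines, 14% of the DLD1 calls and 19.9% of the HCT116 calls. Over all genes 8.77% were called in DLD1, less than the 19.9% among HCT116 calls. The share called in DLD1 differed by level, from 1.03% in the dimmest bin to 14% in the 7th. A share matched for level was not computed, so the excess is not read further. Of the 225, 131 went the same way and 94 opposite ways. Across all genes the changes in DLD1 and HCT116, which share no arrays, had a Pearson's r of 0.0822, and across held genes 0.0747, given as a description across genes. The difference between the lines was itself called for 1307 genes (7.11%), and for 501 of the 743 held DLD1 genes. Held genes were chosen by their DLD1 change, which is also a term of the difference. The larger share among them follows in part from that choice and is no measure of line specificity.

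Differences between the lines took several forms. KRT20, VGLL1 and APOBEC3G fell in DLD1 and were not called in HCT116, where their levels were 7.46, 6.61 and 6.70 in wild-type-only cells. HLTF and SH3BGRL were at 10.65 and 12.06 in HCT116 wild-type-only cells and changed there by 0.06 and 0.03, while in DLD1 they rose from 6.52 and 8.31. EHF rose in both, by 0.52 in DLD1 and 2.28 in HCT116. DPP4 rose in both as well, by 1.10 and 2.09, with a difference of -0.99 (adjusted p = 0.00183). EFNB2 and TRIB2 fell in DLD1 and changed by 0.74 and 0.82 in HCT116, with differences of -1.22 and -1.30 (adjusted p = 1.87e-05 and 1.14e-05). DDIT4, an inhibitor of mTOR complex 1, rose in DLD1 from 8.36, 8.47 and 7.47 to 9.57, 9.37 and 9.15, and its change of 1.26 stood beside 1.06 in HCT116, a difference of 0.20 that was not called (adjusted p = 0.802). SLC1A3 and SLC7A8 had changes of -0.68 and -0.45 in DLD1 and -0.53 and -0.29 in HCT116, also without a called difference.

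**Figure D5:**
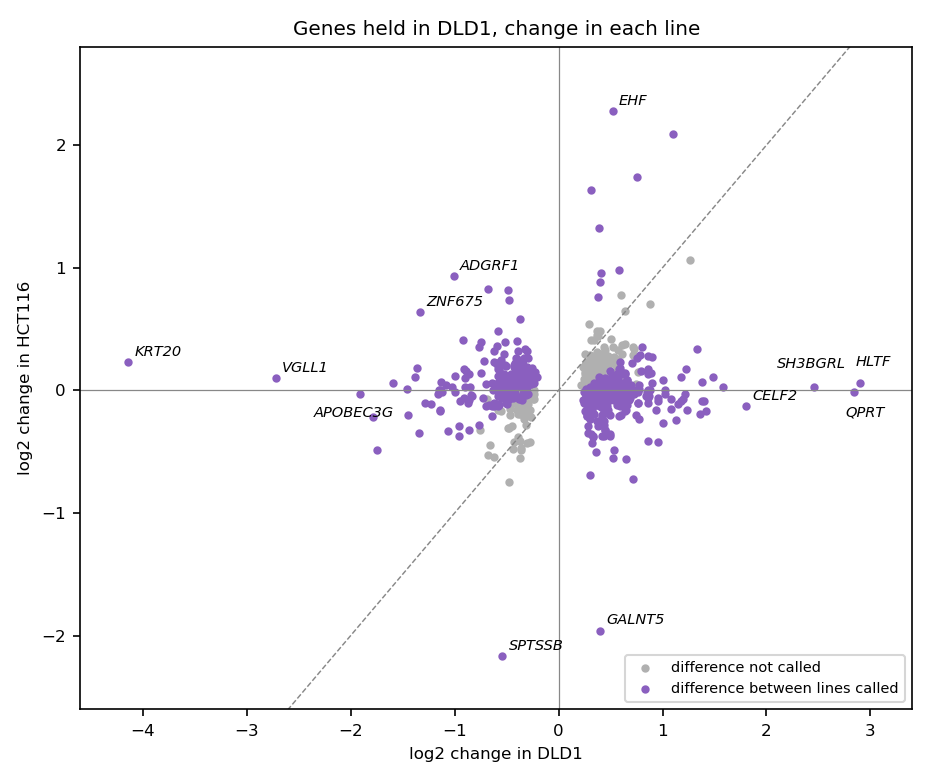
Log2 change in HCT116 against log2 change in DLD1 for the 743 genes held in DLD1, coloured by whether the difference between the lines was called. Most points lie along the DLD1 axis with HCT116 changes near 0, and KRT20, VGLL1, HLTF, QPRT and SH3BGRL are at the extremes. The genes shown were chosen by their DLD1 change.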

How the data were processed

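Expression was measured on HuGene-1_0-st-v1 arrays, per the file headers. The deposited unit is a log2 value for each of 28869 transcript clusters on 12 arrays, in 4 groups of 3 by cell line and genotype per the labels. How the values were normalized is not given in the sources used here. Clusters were named through the platform annotation: 19310 had 1 symbol, 1752 several and 7807 none. The log2 values were tested as deposited with limma 3.58.1 in R 4.3.3, with 4 group means, 8 residual degrees of freedom and Benjamini-Hochberg adjustment over 18377 genes. The procedure was tested on simulated data with known changes. Same-numbered DLD1 arrays deviated together (r = 0.21, 0.129 and 0.358), so the replicate number was also fitted as a block within each line. Differently numbered DLD1 arrays of the 2 genotypes had r of -0.279 to 0.17, so replicates 1 and 2 were not clearly paired. Same-numbered arrays of different lines had r of 0.0657 to 0.471. Other alternatives were quantile normalization, cyclic loess, median centring, array weights, an intensity trend, other choices of cluster, a filter on dim genes, the DLD1 arrays alone and each DLD1 array left out. Genes were named by rule: the 20 largest held rises and falls, up to 5 held members a list, the 6 highest and 6 lowest differences between lines, neighbour runs, the leading 3 of each level bin and cell type markers. ITGA5, H1-5, PSMD1, PSME1, RPL3L, SMAD3 and TGFB2 fall outside it and were chosen after their values were seen, as were DLL4, NOTCH3 and TGFBR3. Genes of the lists, and all other genes given with values, were chosen with earlier results of these data known, and no set test was run on them. Array data carry no count of molecules, so the number of arrays limits the precision. The authors' deposited comparison tables were not used, and the targeted gene's own transcript is not reported here.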

Additional observations from a re-analysis of the deposited data

Results flagged for a closer look

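For 12 genes, the 6 highest and 6 lowest of those held in DLD1, the test of the difference between the lines gave a change in DLD1 unlike that in HCT116. The difference is the DLD1 change minus the HCT116 change on the log2 scale, adjusted over all 18377 genes with limma. It was -4.37 for KRT20 (adjusted p = 2.2e-11), -2.83 for VGLL1, -1.98 for ZNF675, -1.94 for ADGRF1, -1.88 for APOBEC3G and -1.76 for EHF. It was 1.63 for SPTSSB, 1.93 for CELF2, 2.36 for GALNT5, 2.43 for SH3BGRL, 2.83 for HLTF and 2.86 for QPRT (adjusted p = 3.78e-06). The forms differed. ADGRF1, an adhesion G protein-coupled receptor, went from 8.69 to 7.68 in DLD1 and from 10.92 to 11.85 in HCT116. ZNF675 fell by 1.33 in DLD1 and had a change of 0.64 in HCT116. GALNT5, which starts mucin-type glycans, went from 7.58 to 7.98 in DLD1 and from 9.49 to 7.53 in HCT116. SPTSSB fell in both lines, with changes of -0.54 in DLD1 and -2.17 in HCT116, so its positive difference is a smaller fall. For CELF2, an RNA-binding protein, HCT116 lay at 5.95 and 5.82 and DLD1 went from 6.18 to 7.98. QPRT, which makes an NAD precursor from quinolinate, went from 8.47 to 11.31 in DLD1 and lay at 8.01 and 8.0 in HCT116.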

How the results depend on the processing

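Counts of DLD1 calls moved with the weighting and the pairing. Array weights called 4705 genes (2754 higher, 1951 lower) and 2189 differences between the lines. In that fit wild-type-only replicate 1 of DLD1 had a weight of 6.23, against 0.733 and 0.436 for replicates 2 and 3. The wild-type-only side of the contrast thus leaned on 1 array. Median centring called 1671 genes higher. The replicate block, which pairs same-numbered arrays, called 2482 genes (1621 higher, 861 lower) and 2077 differences. The block changed the call of none of the 224 called genes named by rule. Leaving out 1 DLD1 array gave 939 to 1379 calls (576 to 839 higher, 349 to 540 lower) and 955 to 1186 differences. The excess of the upper over the lower genes by level, 0.069, was 0.005 after cyclic loess and 0.003 after quantile normalization. Lists with a median at least 0.1 from that of all genes numbered 22, with 34 when dim genes were left out, 14 after quantile normalization and 17 to 31 without 1 array. The array median difference of 0.007 became -0.045 over all transcript clusters (exact permutation p = 0.1). Of 211 held genes named by rule, only MUC12 and RHOQ lost their call in any alternative, when a gene's clusters were averaged, and none reversed. The causes were not tested. Genes near the floor of the array have little room to fall, and no detection call was used here.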

Other observations

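Among genes of membrane trafficking, RAB38, a GTPase of lysosome-related organelles, read 8.85, 8.96 and 8.84 in wild-type-only and 7.69, 7.97 and 7.97 in mutant-only cells, a log2 change of -1.0 ± 0.0806 (SE, n = 3 against 3; adjusted p = 4.22e-06). RAB3B, a secretory GTPase, fell by 0.49 from 10.24, 10.32 and 10.25, and 1 of 59 measured RAB genes rose while 3 fell, where 3.11% of all genes fell. The lysosomal calcium channels MCOLN3 and MCOLN2 fell by 1.45 and 0.37, in a list of 25 lysosomal genes with 1 rise and 4 falls, which became 0 rises and 8 falls after quantile normalization and had 2 falls without mutant-only replicate 2.

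Of 20 BCL2 family members 2 rose and 2 fell, beside 5.66% and 3.11% of all genes. The held falls were the BH3-only genes BMF (-0.35) and PMAIP1 (-0.37). TIMP4 rose by 0.76, while TIMP3 fell by 0.55 and TIMP2 by 0.30. ADAM23, a catalytically inactive ADAM protein, read 7.20, 7.34 and 7.35 against 6.49, 6.37 and 6.41.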
